A study of Mus musculus with 16 samples.

Results

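Ptgds, which encodes the lipocalin-type prostaglandin D2 synthase, was described together with 9 genes known from the leptomeninges, the thin membranes that cover the brain: Igf2, Igfbp2, Slc6a13, Slc6a20a, Col1a1, Col1a2, Dcn, Bgn and Lum. The 10 genes were chosen by their symbols, and are 10 of the 24972 genes listed in every library. Ptgds was picked for its place among the genes that differed between trained and untrained CA1 in an earlier look at these libraries, so its CA1 values are given as a description without a test, and the tests rest on CA3 and DG. The libraries are bulk RNA-seq of microdissected dentate gyrus (DG), CA3 and CA1 of the dorsal hippocampus, taken an hour after a memory retention test. All 6 animals were adult ArcCreERT2::eYFPflx mice on a C57BL/6 background, in which the Arc promoter drives an inducible Cre recombinase and a Cre-dependent eYFP reporter, so trained and untrained mice shared these alleles. Trained mice had learned active place avoidance, in which a rotating arena carries the animal towards a zone reinforced by foot shock, and untrained mice explored the same arena with the shock never on. CA1 had 3 trained and 3 untrained libraries, CA3 had 3 trained and 2 untrained (replicates 1 and 2), and DG had 3 trained and 2 untrained (replicates 1 and 3). Per the labels and methods, each library held the pooled tissue of 1 animal and 1 subregion, and the p-values below measure the spread between libraries so labelled.

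Lipocalin-type prostaglandin D2 synthase converts prostaglandin H2 to prostaglandin D2 and is also secreted into the cerebrospinal fluid as a carrier of small lipophilic molecules. In the brain it is known from leptomeningeal cells, the choroid plexus and oligodendrocytes. Leptomeningeal fibroblasts lay down the fibrillar collagens and small proteoglycans of the brain's outer matrix, carry solute transporters at the border with the cerebrospinal fluid, and make insulin-like growth factor 2 and one of its binding proteins, both of which the choroid plexus makes as well. In bulk tissue, fewer cells of a type and less RNA per cell cannot be told apart.

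The promoters of Ptgds and of the transporters Slc6a13 and Slc6a20a are shown because these transporters, with Dcn, had the highest Pearson's r with Ptgds among the other 9 genes over the 16 libraries. Those include the CA1 libraries used to pick Ptgds. In the 10 CA3 and DG libraries Col1a2 had a higher r than Slc6a20a, as given below. The RefSeq windows (GRCm38.p6) hold 250 bases before and 50 from the transcript start, and are given 5′ to 3′ on the gene's strand with E-boxes (CANNTG, the site of basic helix-loop-helix factors) in capitals. The Ptgds window is chr2:25469700-25469999 (minus strand), that of Slc6a13, the first of its 3 listed starts, is chr6:121300038-121300337 (plus strand), and that of Slc6a20a is chr9:123678783-123679082 (minus strand).
Ptgds: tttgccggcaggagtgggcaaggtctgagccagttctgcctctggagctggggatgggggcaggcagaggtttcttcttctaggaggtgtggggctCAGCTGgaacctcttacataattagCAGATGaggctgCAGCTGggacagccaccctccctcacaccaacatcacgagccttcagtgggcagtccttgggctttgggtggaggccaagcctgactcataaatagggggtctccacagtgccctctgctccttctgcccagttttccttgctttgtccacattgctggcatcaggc
Slc6a13: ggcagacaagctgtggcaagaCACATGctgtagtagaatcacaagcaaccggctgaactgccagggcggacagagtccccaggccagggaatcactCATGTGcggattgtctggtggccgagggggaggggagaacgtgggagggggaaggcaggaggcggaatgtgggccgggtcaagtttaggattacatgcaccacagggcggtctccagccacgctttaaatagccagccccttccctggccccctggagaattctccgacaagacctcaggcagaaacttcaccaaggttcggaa
Slc6a20a: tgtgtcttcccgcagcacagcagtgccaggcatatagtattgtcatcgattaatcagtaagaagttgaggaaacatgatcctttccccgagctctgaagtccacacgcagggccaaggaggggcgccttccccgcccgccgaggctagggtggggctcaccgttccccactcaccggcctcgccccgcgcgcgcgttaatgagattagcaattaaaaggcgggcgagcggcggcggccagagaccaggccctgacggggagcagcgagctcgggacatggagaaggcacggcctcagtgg
The Ptgds window held 3 E-boxes, that of Slc6a13 held 2 and that of Slc6a20a held 0. CANNTG is its own reverse complement and occurred in 72.3% of the 32851 promoter windows of the table. GC boxes (GGGCGG, either strand) numbered 0 in Ptgds, 2 in Slc6a13 and 1 in Slc6a20a, and 35.7% of windows held at least 1. None of the 3 windows held the letters TATAAA on either strand, which 13.6% of windows held. Col1a2, Igf2, Igfbp2 and Bgn also had entries in the table.

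The deposited values are normalized estimated counts, and their sums of 7607326 to 7984931 per library do not show depth. From the spacing of low values the reads behind the libraries were approximated as 2540000 to 15120000. The libraries fell into 2 sets by the number of genes listed at 0: 7567 to 9759 genes in 7 libraries (every trained CA1 library, replicates 1 and 2 of trained CA3, and the untrained DG pair) and 3124 to 5944 in the other 9. The sex-linked Xist was at 7601 to 19592 in the 9 trained libraries and at 10587 in untrained CA3 replicate 1, against 25.5 to 52.4 in the other 6 untrained libraries, although the study's methods list both sexes in each training group. The Y-linked Ddx3y was at 448 to 553 in those 6 libraries and at 1.66 to 12.9 in 5 trained libraries. Untrained CA3 replicate 1 held both transcripts (Ddx3y 201), unlike the CA1 and DG libraries labelled as the same animal (Xist 26.1 and 25.5, Ddx3y 553 and 448), so it went against its label, and trained DG replicate 3 also held both (Xist 7601, Ddx3y 255). Ddx3y was lower but above the other trained libraries in trained CA1 replicates 1 and 3 (70.9 and 100.6) and in trained CA3 replicate 3 (92.9). All were kept under their labels, and results without untrained CA3 replicate 1, trained CA3 replicate 3 and trained DG replicate 3 are given below. Sex-linked transcripts and training therefore cannot be told apart in CA1 and DG. As a check of the dissection, 4 of 5 CA1 pyramidal markers were called higher in CA1 than in CA3 and 0 of 5 between CA1 and DG. Of the CA3 pyramidal markers 2 of 4 were called lower in CA1 than in CA3 and than in DG. Between CA3 and DG 0 of 5 CA1 and 0 of 4 CA3 pyramidal markers were called, and 0 of 5 dentate granule markers were called in any subregion contrast, so these markers did not set the libraries labelled DG apart from those labelled CA3. Within subregions their values also went with training. In CA1, as a description, 5 of 5 CA1 pyramidal markers were lower in trained libraries, all with no overlap (11.1% of all genes did, median -1.01), and in trained CA3 5 of 5 dentate granule markers were lower (median -0.42), 0 of them called and 2 at an unadjusted limma p under 0.05. Their part in the training differences below was not tested.

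All 10 genes were above 0 in every library and passed the filter of each comparison, a value of at least 10 in as many libraries as the smallest group. Divided by exonic length, Ptgds had a median of 871 per kb over the 16 libraries. Igfbp2 (37.4 per kb) and Igf2 (29.7 per kb), a binding protein and its growth factor, followed. The medians per kb of the remaining 7 genes ran from 13.4 for Slc6a20a to 4.41 for Col1a1. Igf2 overlaps the antisense gene Igf2os and, on its own strand, Gm49394 and Mir483. Col1a2 overlaps Gm43921 on its own strand, Slc6a13 overlaps Gm24855 on the opposite strand, and Slc6a20a overlaps other genes on both strands. Strand use in counting is not given in the sources used here, so reads of such overlapping genes may be shared. Overlap on the same strand remains whichever way strands were used.

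In GRCm38, Ptgds occupies chromosome 2 from 25466709 to 25470046. Its values in untrained CA1 were 1811, 1627 and 1715 in replicates 1 to 3, and in trained CA1 they were 899.8, 792 and 839.9. In untrained CA3 they were 1814 and 1991, and in trained CA3 they were 733, 809 and 1502. In untrained DG they were 1112 and 1464, and in trained DG they were 1451, 1422 and 1326. Every trained CA1 and CA3 library was thus below every untrained one of its subregion, with trained CA3 replicate 3 far above the other trained CA3 libraries, and in DG the groups overlapped. Ordered by mean, the groups were untrained CA3 (1903 ± 125, SD, n = 2), untrained CA1 (1718 ± 91.9, SD, n = 3), trained DG (1399.7 ± 65.3, SD, n = 3), untrained DG (1288 ± 249, SD, n = 2), trained CA3 (1015 ± 424, SD, n = 3) and trained CA1 (844 ± 54.1, SD, n = 3). From trained DG downwards each group overlapped its neighbour in this order.

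**Figure D1:**
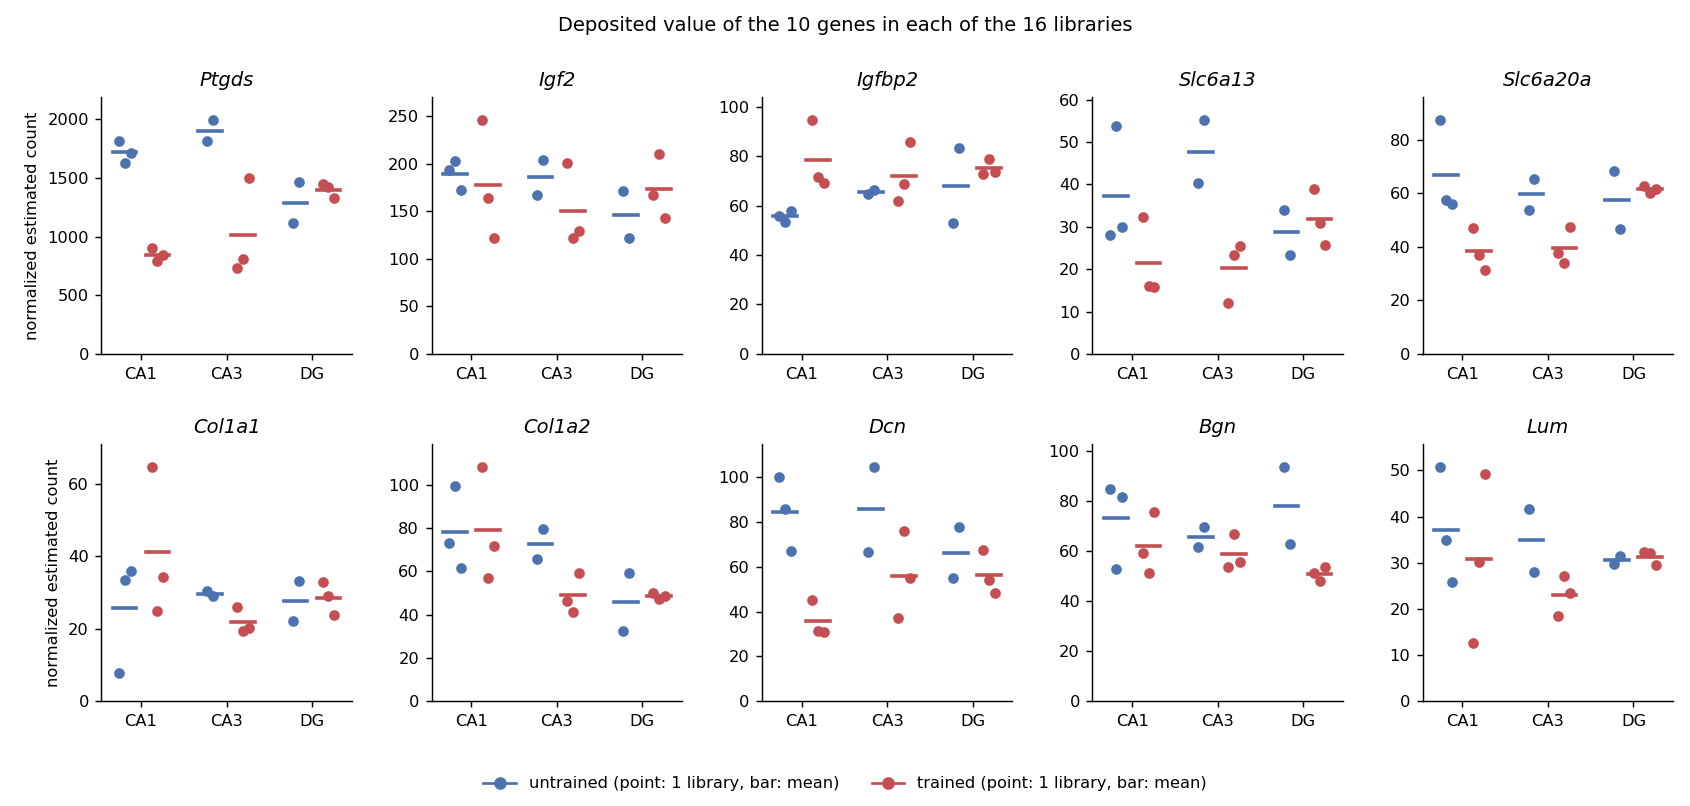
Normalized estimated count (linear axis from 0) of each of the 10 genes by subregion, with untrained libraries in blue and trained libraries in red, each point 1 library and each bar the group mean. Ptgds in trained CA1 (791.8 to 899.8) lies well below untrained CA1 (1627 to 1811), while in DG the groups overlap.

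In CA1, the log2 difference of Ptgds (trained minus untrained, on log2(value + 2)) was -1.02 with a standard error of 0.0652. Of the 10 genes, 3 had all trained CA1 libraries below all untrained ones (Ptgds, Slc6a20a and Dcn), where 11.1% of the 13588 genes compared did, and Igfbp2 alone had them all above, where 12.9% did. Nothing is read from these counts, since the contrast was used to choose Ptgds. With a sex-linked covariate the Ptgds difference in CA1 was -0.44, but that covariate had r = -0.98 with training there, so the fit can hardly separate them.

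In CA3, which the choice did not use, the Ptgds difference was -0.98 with a standard error of 0.386 (95% confidence interval from -2.10 to 0.14), and it did not pass (limma adjusted p = 0.358). The result turned on trained CA3 replicate 3: without it the difference was -1.30 (limma adjusted p = 6.44e-05, with 0.939% of all genes called), and across the 5 libraries left out in turn the adjusted p ran from 6.44e-05 to 0.779. The difference was -0.49 with the sex-linked covariate and -0.34 when the set of libraries by genes at 0 entered the fit, neither called. Replicate 3 is the only trained CA3 library with few genes at 0, and its Ddx3y (92.9) was above that of the other trained CA3 libraries (12.9 and 6.54). The part of either in the result was not tested. In DG the Ptgds difference was 0.13 with a standard error of 0.0992 (95% confidence interval from -0.08 to 0.35, limma adjusted p = 0.514). Here the untrained libraries decided the value, which was -0.07 without untrained DG replicate 1 and 0.33 without untrained DG replicate 3 (limma adjusted p = 0.00915). Over the 5 libraries left out in turn that adjusted p ran from 0.00915 to 0.749, and with 1 untrained library left, that library is assumed to vary like the others. Tested as an interaction, the difference in CA3 minus that in DG was -1.11 for Ptgds (standard error 0.350), which did not pass adjustment (limma adjusted p = 0.265). It was -1.47 without trained replicate 3 (limma adjusted p = 4.92e-05, with 0.495% of all genes called), with adjusted p-values up to 0.615 over the 6 animals left out, and 0.49 when the set of libraries by genes at 0 entered the fit.

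Of the 10 genes, 0 were called between trained and untrained CA3 by limma at an adjusted p of 0.05, where 0.852% of 13848 genes were, and 3 had an unadjusted p under 0.05 (Slc6a13, Slc6a20a and Col1a2), where 15.8% did. All trained CA3 libraries lay below both untrained ones for 6 of the 10 genes (Ptgds, Slc6a13, Slc6a20a, Col1a1, Col1a2 and Lum), where 16.7% of genes did. Without untrained CA3 replicate 1, a comparison added after seeing the data, this held for 9 of the 10 genes and for 27.3% of all genes, 0 of the 10 were called, and the Ptgds difference was -1.05 (limma adjusted p = 0.779). Of the 10 differences in CA3, 9 were negative. Choroid plexus markers were lower in the same libraries: their summed value was 966 to 1337 in untrained and 300.0 to 464 in trained CA3, with 7 of the 16 markers above 0 in every one of the 16 libraries, and their part in the result was not tested. In DG, 0 of the 10 genes were called, where 3.39% of 13935 genes were, and 1 had an unadjusted p under 0.05 (Bgn), where 19.5% did. Bgn was also the single gene with all trained DG libraries below the untrained ones, against 18.2% of genes, and 0 had them all above, against 17.5%. Without untrained DG replicate 3, 2 were called, Ptgds and Bgn, the latter at -0.85, where 12.1% of all genes were called in that fit. Without trained DG replicate 3, 0 were called and the Ptgds difference was 0.17. Of the 10 differences in DG, 8 were positive.

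**Figure D2:**
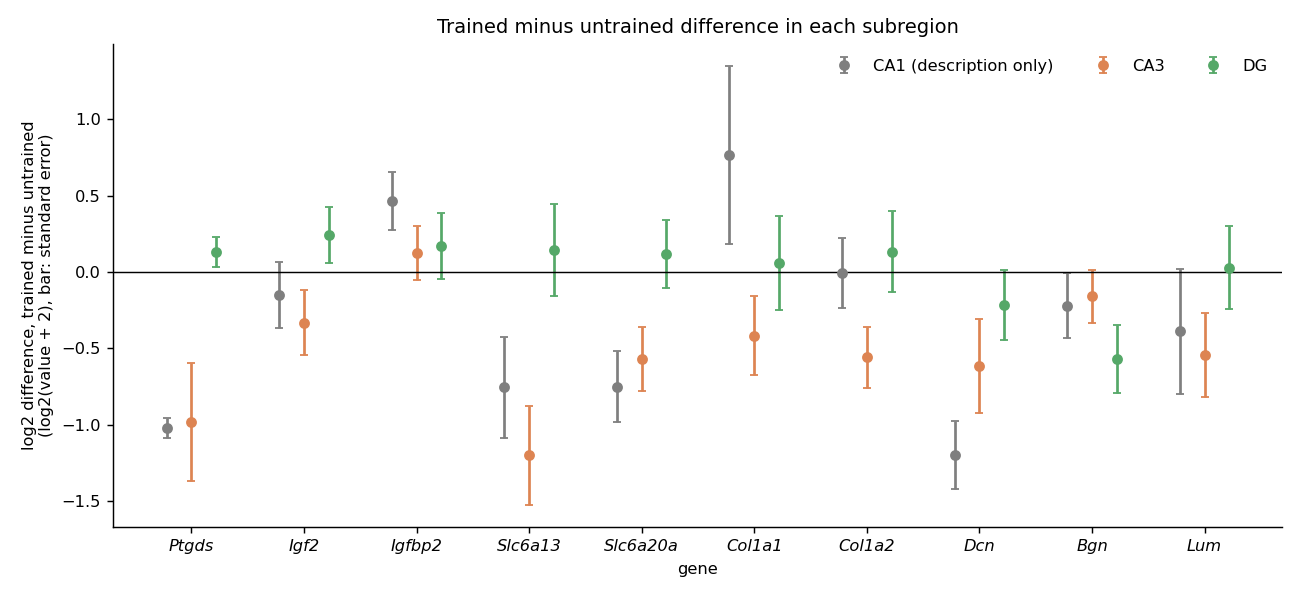
Log2 difference between trained and untrained libraries (log2(value + 2) scale) for each gene in CA1 (grey, a description only), CA3 (orange) and DG (green), with bars for 1 standard error. The CA3 points lie below 0 except for Igfbp2 (0.12), and the DG points lie near or above 0 except for Dcn (-0.22) and Bgn (-0.57).

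With CA3 and DG fitted together and the subregion as a term, 0 of the 10 genes were called by limma, where 5.24% of 14306 genes were, and 2 had an unadjusted p under 0.05 (Bgn and Dcn), where 21.6% did. The Ptgds difference was -0.42 with a standard error of 0.292 (limma adjusted p = 0.459). When the set of libraries by genes at 0 entered the fit, an alternative chosen after seeing the data, it was -0.55 (limma adjusted p = 0.00338), and Ptgds was then the single gene of the 10 called, where 4.96% of all genes were. Since this set coincides with training in DG, that fit assumes the same training difference and the same set difference in CA3 and DG. With this term the interaction of Ptgds was 0.49 (limma adjusted p = 0.772), so that value is not read as a training effect. Over the alternatives other than left-out animals the adjusted p of Ptgds with CA3 and DG together ran from 0.00338 to 0.815. In the interaction, 0 of the 10 genes were called, where 0.164% of 14673 genes were, and 2 had an unadjusted p under 0.05 (Ptgds and Slc6a13), where 11.7% did.

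Slc6a13 encodes GAT2, a transporter of GABA and taurine known from the meninges. It lies on chromosome 6 from 121300227 to 121337733. Its values were 28.0, 53.7 and 29.9 in untrained CA1, and 32.3, 16.1 and 15.7 in trained CA1. In CA3 they were 40.2 and 55.1 in untrained libraries, and 11.95, 23.4 and 25.5 in trained libraries. In DG they were 33.9 and 23.4 in untrained libraries, and 39.0, 31.0 and 25.7 in trained libraries. The groups overlapped in CA1 and DG, and in CA3 every trained library was lower. The CA3 difference, -1.20 with a standard error of 0.324, was the largest of the 10 in that subregion and did not pass (limma adjusted p = 0.117). The difference was -0.76 in CA1 (standard error 0.331) and 0.15 in DG (standard error 0.302, limma adjusted p = 0.838).

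Slc6a20a encodes a sodium-dependent imino acid transporter and lies on chromosome 9 from 123634770 to 123678885. Its values were 87.3, 57.4 and 55.9 in untrained CA1, against 47.1, 37.1 and 31.5 in trained CA1. In CA3 they were 53.8 and 65.5 in untrained libraries, against 37.9, 33.9 and 47.3 in trained libraries. DG had 68.1 and 46.6 in untrained libraries and a narrow 62.8, 60.003 and 61.7 in trained libraries. The groups were apart in CA1 and CA3, with trained lower, and overlapped in DG. The CA3 difference was -0.57 with a standard error of 0.209 (limma adjusted p = 0.221), and the DG difference was 0.12 with a standard error of 0.222 (limma adjusted p = 0.814).

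The small leucine-rich proteoglycans bind collagen fibrils and growth factors, and 3 of them are among the 10 genes. Dcn (decorin), on chromosome 10 from 97479609 to 97518143, had values of 100.2, 85.9 and 66.8 in untrained CA1 and 45.3, 31.1 and 30.7 in trained CA1. In CA3 it had 66.7 and 104 in untrained libraries and 36.9, 76.0 and 55.2 in trained libraries. In DG it had 54.99 and 77.6 in untrained libraries and 67.3, 54.0 and 48.2 in trained libraries. Its groups were apart only in CA1, where the log2 difference was -1.20 with a standard error of 0.222. The difference was -0.62 in CA3 (standard error 0.307, limma adjusted p = 0.375) and -0.22 in DG (standard error 0.232, limma adjusted p = 0.657).

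Bgn (biglycan), on chromosome X from 73483602 to 73495933, had 93.3 and 62.6 in untrained DG and 51.1, 48.1 and 53.7 in trained DG. Its DG difference was -0.57 with a standard error of 0.224 (limma adjusted p = 0.171). The groups of CA1 and CA3 overlapped, with values from 51.2 to 84.6 and from 53.6 to 69.5. Lum (lumican), on chromosome 10 from 97565128 to 97572703, ranged from 12.7 to 50.7 over the 16 libraries. Both its lowest and its second highest value (49.3) came from trained CA1. Its differences were -0.39 in CA1, -0.54 in CA3 (limma adjusted p = 0.362) and 0.03 in DG (limma adjusted p = 0.971).

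Col1a1 and Col1a2 encode the alpha chains of type I collagen. Col1a2, on chromosome 6 from 4504814 to 4541544, had 73.0, 99.4 and 61.7 in untrained CA1 and 108, 57.1 and 71.7 in trained CA1. In CA3 it had 65.6 and 79.6 in untrained libraries and 46.3, 41.3 and 59.2 in trained libraries. In DG it had 32.6 and 59.2 in untrained libraries and 49.8, 47.2 and 48.5 in trained libraries. Trained CA1 held both high and low values, trained CA3 lay below untrained CA3, and the DG groups overlapped. The differences were -0.01 in CA1 (standard error 0.228), -0.56 in CA3 (standard error 0.199, limma adjusted p = 0.209) and 0.13 in DG (standard error 0.264, limma adjusted p = 0.828). Col1a1, on chromosome 11 from 94936224 to 94953042, ranged from 7.74 in untrained CA1 replicate 1 to 64.5 in trained CA1 replicate 1. Outside these libraries it lay between 19.3 and 35.9. Its differences were 0.77 in CA1 with a standard error of 0.583, -0.42 in CA3 (limma adjusted p = 0.462) and 0.06 in DG (limma adjusted p = 0.946).

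Igf2, a growth factor, lies on chromosome 7 from 142650766 to 142666816 and ranged from 121.5 to 246 over the 16 libraries, with the highest value in trained CA1 replicate 1. Its groups overlapped in each subregion, and its differences were -0.15 in CA1, -0.33 in CA3 (limma adjusted p = 0.495) and 0.24 in DG (limma adjusted p = 0.511). Without trained CA3 replicate 1 the CA3 difference was -0.56 (limma adjusted p = 0.0459, with 4.94% of all genes called), and without trained CA3 replicate 2 it was -0.20 (limma adjusted p = 0.801). Igfbp2, which encodes a protein that binds insulin-like growth factors, lies on chromosome 1 from 72824503 to 72852474. It had 55.7, 53.4 and 58.0 in untrained CA1 and 94.5, 71.5 and 69.2 in trained CA1, so that trained CA1 was higher, opposite to Ptgds. Its difference in CA1 was 0.47 with a standard error of 0.188, and its differences were 0.12 in CA3 (limma adjusted p = 0.776) and 0.17 in DG (limma adjusted p = 0.712), where the groups overlapped.

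Subregions were compared in a fit of the 6 groups of subregion and training, averaged over training. For Ptgds the differences were -0.17 for CA1 minus CA3 (standard error 0.166, limma adjusted p = 0.826), -0.15 for CA1 minus DG (standard error 0.166, limma adjusted p = 0.680) and 0.02 for CA3 minus DG (standard error 0.175, limma adjusted p = 0.989). The 95% confidence interval of the last ran from -0.37 to 0.41. By limma, 0 of the 10 genes were called between CA1 and CA3, where 0.988% of 14673 genes were, and 0 had an unadjusted p under 0.05, where 10.2% did. Between CA1 and DG 1 of the 10 was called, Col1a2, where 4.05% of genes were, and it alone had an unadjusted p under 0.05, where 19.6% did. It was higher in CA1 by 0.70 on the log2 scale, with a standard error of 0.176 (limma adjusted p = 0.0256). This call was lost when any of untrained replicates 1 or 2 or trained replicates 1, 2 or 3 was left out (0.51 to 0.79) and without the filter on low values, and it held without untrained replicate 3 (0.98). Between CA3 and DG 0 of the 10 were called, where 0.00682% of genes were, and 0 had an unadjusted p under 0.05, where 6.86% did.

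Whether Ptgds followed the other genes was asked over libraries, on log2(value + 2). The 16 libraries come from 6 animals, and the 6 CA1 libraries belong to the contrast that picked Ptgds, so the 16-library values are a description. Over 16 libraries, Pearson's r with Ptgds was 0.77 for Slc6a20a (Spearman's rho 0.60), 0.76 for Dcn (rho 0.74) and 0.75 for Slc6a13 (rho 0.69). It was 0.37 for Lum, 0.27 for Col1a2, 0.16 for Igf2, 0.14 for Bgn, -0.17 for Col1a1 and -0.20 for Igfbp2. The transporters and decorin had the highest r, and whether it differed from that of the other 6 genes was not tested. Without trained CA1 replicate 2 and trained CA3 replicate 1, the libraries farthest from the Ptgds median, r was 0.70 for Slc6a20a, 0.66 for Dcn and 0.60 for Slc6a13. Of the 14672 genes compared with Ptgds in this way, 1.25% had a higher r than Slc6a20a, 1.39% than Dcn and 1.62% than Slc6a13, and the median over all genes was 0.02. The 6 pairs among Ptgds, Slc6a13, Slc6a20a and Dcn had r from 0.63 to 0.77, against a median of 0.16 over the 45 pairs of the 10 genes.

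**Figure D3:**
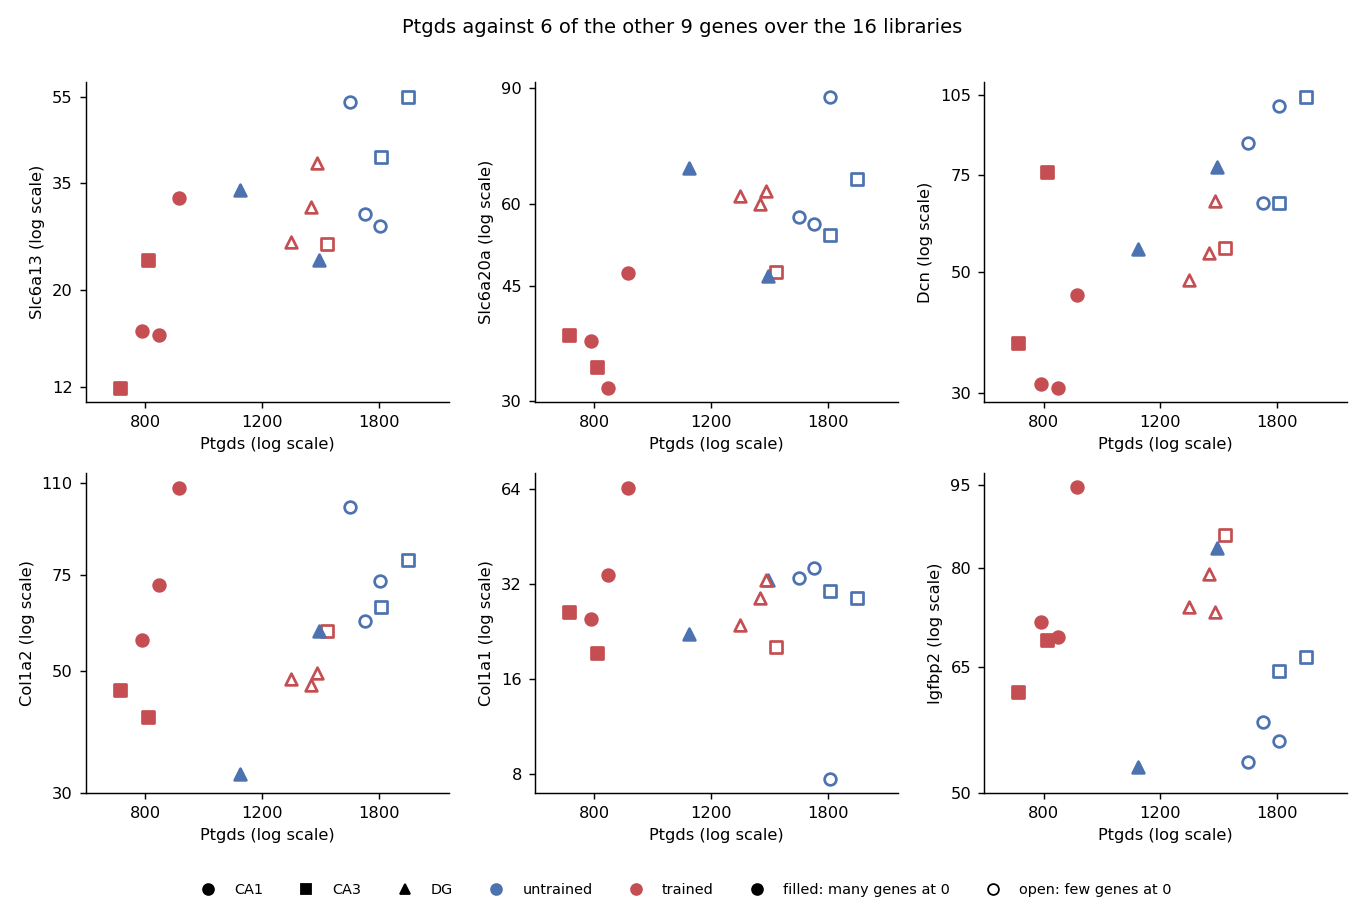
Value of 6 genes (log2 axes) against that of Ptgds in the 16 libraries, by subregion (circle CA1, square CA3, triangle DG) and training (blue untrained, red trained), filled where many genes were listed at 0 and open where few were. Slc6a13, Slc6a20a and Dcn rise with Ptgds (r = 0.75, 0.77 and 0.76), and Col1a1 and Igfbp2 do not (r = -0.17 and -0.20).

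In the 10 CA3 and DG libraries, which had no part in picking Ptgds, 34 relations were tested (9 genes and 25 oligodendrocyte genes). The permutations treated these libraries as independent, although several come from 1 animal and they differ in training and subregion. The p-values do not allow for this. Slc6a13 had r = 0.80 (permutation p = 0.00421, adjusted p = 0.143) and rho = 0.67 (permutation p = 0.0391, adjusted p = 0.558). Col1a2 had r = 0.73 (permutation p = 0.0164, adjusted p = 0.279) and rho = 0.93 (permutation p = 3e-04, adjusted p = 0.0102). Slc6a20a had r = 0.67 (permutation p = 0.0356, adjusted p = 0.404) and rho = 0.31 (permutation p = 0.384). None of the 9 passed adjustment by r and 1, Col1a2, by rho. Lum (0.63), Dcn (0.56), Col1a1 (0.51), Igfbp2 (0.33) and Igf2 (0.12) had positive r, and Bgn had -0.05. Without trained CA3 replicates 1 and 2, the libraries farthest from the Ptgds median, Col1a2 had r = 0.95 (exact permutation p = 0.000198, adjusted p = 0.00675, n = 8), Slc6a13 had 0.59 and Slc6a20a had -0.19, so the relation of Slc6a20a rested on those 2 libraries. That of Col1a2 held without them, but over all 16 libraries it was 0.71 within the 9 with few genes at 0 and -0.06 within the 7 with many.

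Oligodendrocyte genes were set beside the meningeal ones, since oligodendrocytes also make Ptgds. Over the 16 libraries r with Ptgds ran from -0.42 to 0.63 over the 25 oligodendrocyte genes, with a median of 0.26, highest for Aspa (0.63), Car2 (0.61) and Gsn (0.59). This median was 0.47 without untrained replicate 1, the animal with the CA3 library that went against its label, and 0.16 without untrained replicate 3 or trained replicate 1. Without the 2 libraries farthest from the Ptgds median it was 0.05. In the 10 CA3 and DG libraries r of these genes with Ptgds ran from -0.45 to 0.53 (median 0.13), and 0 of 25 passed adjustment by r or by rho. With the means of the 6 groups removed, so that only differences within a group remain, r was 0.74 for Igfbp2 (permutation p = 0.00707, adjusted p = 0.0963), 0.53 for Col1a2, 0.34 for Dcn, 0.32 for Slc6a13 and 0.31 for Slc6a20a. It was -0.24 for Igf2, -0.12 for Bgn, -0.0052 for Col1a1 and -0.0031 for Lum. The 25 oligodendrocyte genes had r from 0.12 to 0.76, all positive, with a median of 0.63, against a median of 0.31 for the 9 genes. None of these passed adjustment.

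**Figure D4:**
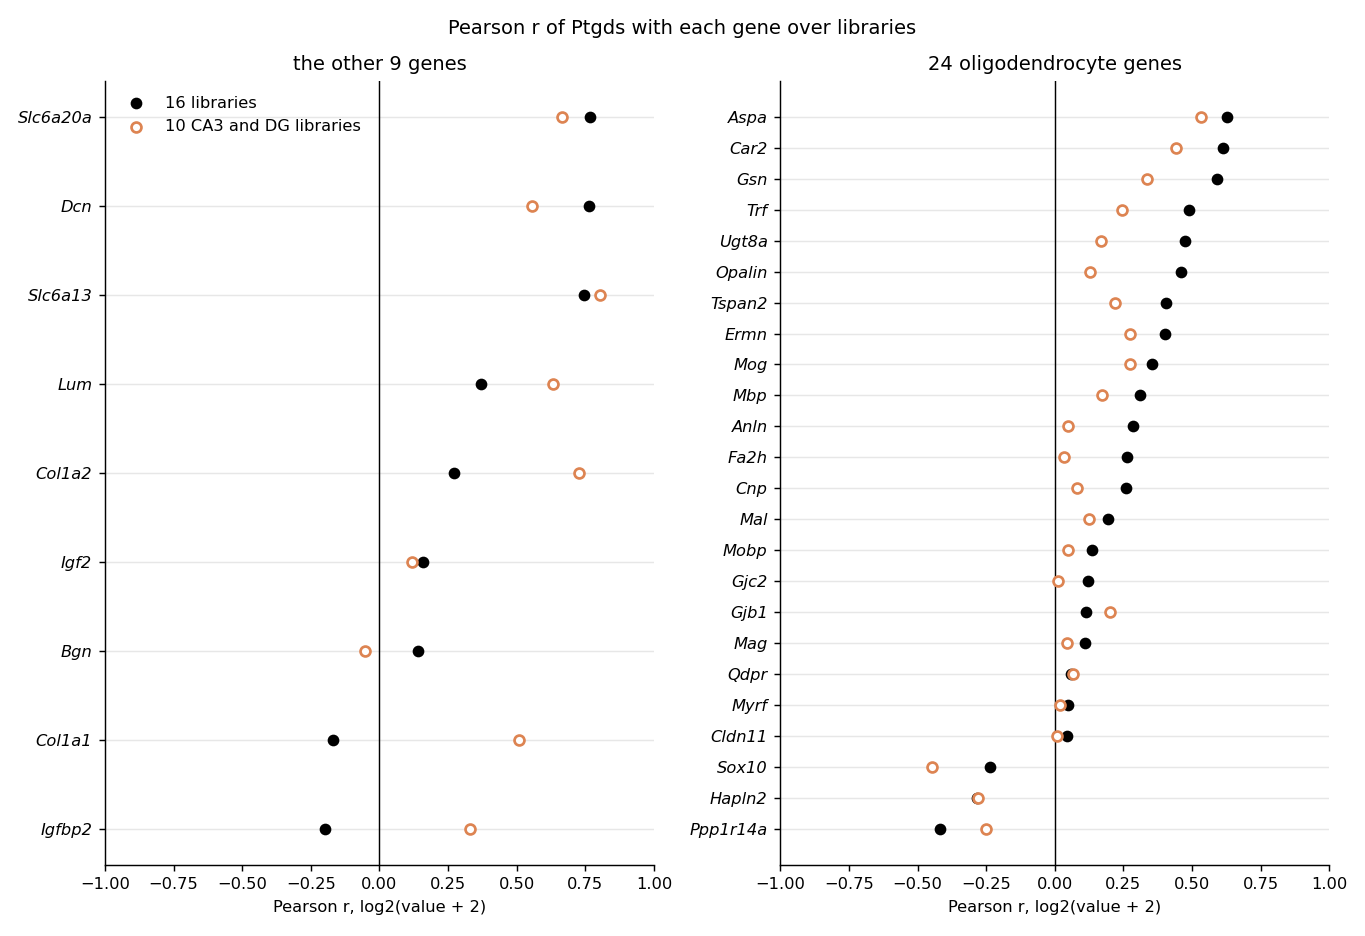
Pearson's r (log2(value + 2)) of Ptgds with the other 9 genes (left) and with 24 of the 25 oligodendrocyte genes (right), over all 16 libraries (filled) and over the 10 CA3 and DG libraries (open). Slc6a20a, Dcn and Slc6a13 are highest over 16 libraries, and Slc6a13 and Col1a2 (0.80 and 0.73) over the 10.

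The number of genes listed at 0 moved with the same genes. Ptgds lay between 733 and 1464 (median 839.9) in the 7 libraries with many genes at 0 and between 1326 and 1991 (median 1627) in the 9 with few. Slc6a13 lay between 11.95 and 33.9 in the former and between 25.5 and 55.1 in the latter, Slc6a20a between 31.5 and 68.1 and between 47.3 and 87.3, and Dcn between 30.7 and 77.6 and between 48.2 and 104. Bgn and Igfbp2 showed the opposite order of medians, 62.6 with many and 55.6 with few for Bgn, and 69.2 and 66.4 for Igfbp2. Since the libraries form separate sets, no pooled correlation with this number is given. Within the 9 libraries r of Ptgds with it was 0.15 (exact permutation p = 0.684) and within the 7 it was -0.48 (exact permutation p = 0.273). The relations with Ptgds within these sets were 0.83 for Dcn, 0.52 for Slc6a13 and 0.28 for Slc6a20a in the 9 libraries, and 0.63, 0.55 and 0.61 in the 7, and 0 of the 9 genes passed adjustment in either set. All 3 trained CA1 libraries have many genes at 0 and no untrained CA1 library does, and in DG it is the reverse: both untrained libraries have many (8636 and 7567) and the 3 trained ones few (3479 to 5944). In CA1 and in DG this number and training cannot be told apart, which also holds for the DG side of the interaction. In CA3, trained replicates 1 and 2 have many and the other 3 libraries few.

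**Figure D5:**
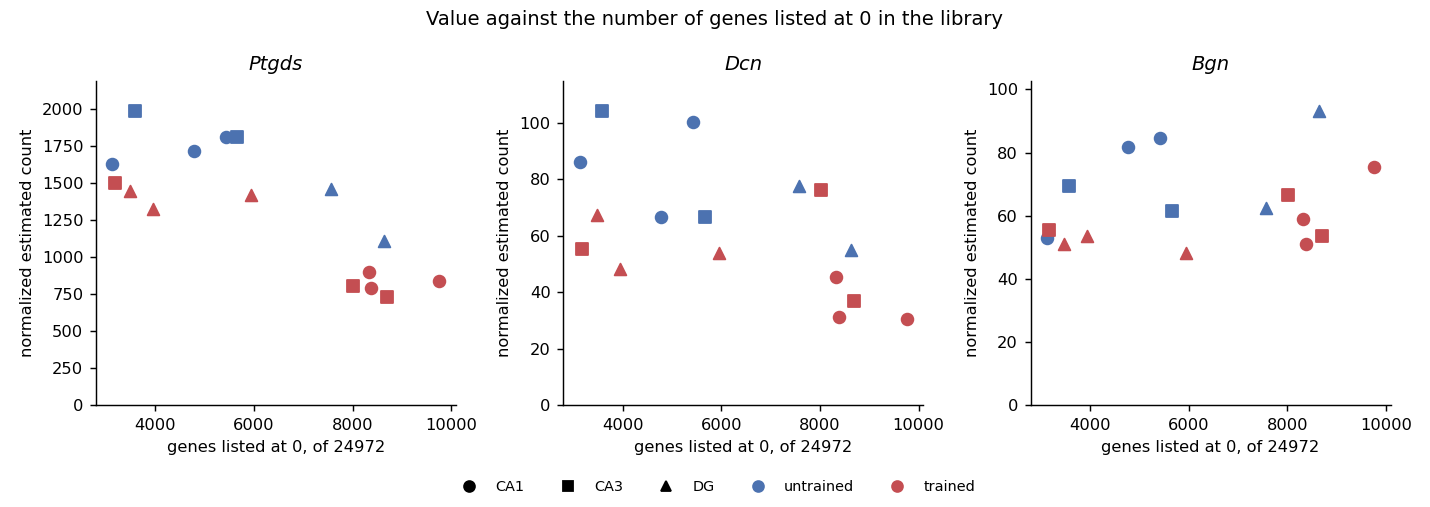
Normalized estimated count (linear axis from 0) of Ptgds, Dcn and Bgn against the number of the 24972 genes listed at 0 in each library, with subregion by marker and training by colour. Ptgds reaches 1464 at most in the 7 libraries at the right (7567 genes or more) and 1326 at least in the 9 at the left.

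Over 14672 genes, those most like Ptgds over the 16 libraries were Xirp2 (r = 0.94), Adam30 (0.94), Synb (0.93), Mroh2a (0.93), Gm10825 (0.91), Cytip (0.91), Rptn (0.91) and Muc5b (0.90). Each was low, with medians from 3.38 to 20.7, and each was listed at 0 in 2 to 5 libraries. These genes were also low where many genes were at 0: for 5 of the 8 (Xirp2, Adam30, Mroh2a, Gm10825 and Muc5b) the highest value in the 7 libraries with many genes at 0 was below the lowest in the other 9, as for Mroh2a (7.54 against 18.9) and Xirp2 (8.05 against 12.6). With subregion means removed the first 8 were Adam30 (0.96), Xirp2, Synb, Muc5b, Mroh2a, Gm10825, Ugt1a1 and Brca1 (0.92). None of the other 9 genes was among them. The genes most like Col1a2 were Kcnj13 (0.87), Gabpb1, Rabggtb, Synj2bp, Abca4, Snord32a, Tlr9 and Aqp1 (0.77), of which Kcnj13 and Aqp1 are known from the choroid plexus. With subregion means removed they were Psmc1 (0.88), Gspt1, Kcnj13, Gpalpp1, Smarca5, Ufm1, Parp10 and Dnah10 (0.78).

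Other leptomeningeal fibroblast genes came from a list that leaves out the 10. In CA3, 23 of the 33 tested were lower in trained libraries with a median of -0.29 (all genes -0.01), and 0 were called, while 10 had an unadjusted limma p under 0.05 (15.8% of all genes did). The most abundant of them were Cemip, a hyaluronan-binding protein (-0.13, limma adjusted p = 0.775), Islr (-0.61, limma adjusted p = 0.132) and Col12a1 (0.69, limma adjusted p = 0.0649). In DG, 22 of 34 were higher with a median of 0.17 (all genes 0.00), and 2 were called (3.39% of all genes were). These were Col6a1, a type VI collagen chain, which rose by 1.28 (limma adjusted p = 0.0109), and Slc22a6, an organic anion transporter, which rose by 1.56 (limma adjusted p = 0.0409). With CA3 and DG together Col12a1 (0.53, limma adjusted p = 0.0268) and Col6a1 (1.15, limma adjusted p = 0.0422) rose, 2 of 34, where 5.24% of all genes were called. In CA1, as a description, 22 of 32 were lower with a median of -0.24 (all genes 0.00). Over the 16 libraries the mean log2 value of 34 such genes had r = 0.81 with Ptgds (0.51 within the 9 libraries with few genes at 0 and 0.14 within the 7 with many), and r = 0.74 with Slc6a20a and 0.68 with Slc6a13. These relations were chosen after seeing the data and are a description.

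Of the prostaglandin D2 pathway, 0 of the 8 genes tested in CA3 and in DG were called by limma, with 0 at an unadjusted p under 0.05 in either, and 0 of 9 were called with CA3 and DG together or between subregions. Its most abundant genes were Ptgs2, the inducible cyclooxygenase, Cbr1 and Akr1b3. Ptgs2 had differences of 0.24 in CA3 (standard error 0.182, limma adjusted p = 0.568) and 0.24 in DG (standard error 0.121, limma adjusted p = 0.282), and in CA1, as a description, it was higher by 0.60 with no overlap. Cbr1, a carbonyl reductase, had 0.14 and -0.03, and Akr1b3, an aldose reductase, had 0.01 and -0.26, none called. Hpgds, the other prostaglandin D2 synthase, had 0.10 in CA3 (limma adjusted p = 0.875) and -0.07 in DG (limma adjusted p = 0.918). Of the insulin-like growth factor axis 0 of 11 were called in CA3, and 2 of 11 were called in DG: Igfbp5 fell by 0.50 (limma adjusted p = 0.00142) and Igfbp7 fell by 1.39 (limma adjusted p = 0.0257), both binding proteins, where 3.39% of all genes were called. With CA3 and DG together Igfbp5 fell by 0.50 (limma adjusted p = 0.00967), 1 of 11, where 5.24% of all genes were called.

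The shares of all genes called, against which the counts that follow are read, were 0.852% in CA3, 3.39% in DG and 5.24% with both together. Of the collagen I synthesis genes 0 of 10 were called in CA3 or in DG, and with both together Plod2, a lysyl hydroxylase, fell by 0.46 (limma adjusted p = 0.0402), 1 of 10. Of the other small leucine-rich proteoglycans 0 of 3 were called in CA3, 0 of 4 in DG and 0 of 5 with both together. Of the other SLC6 transporters 0 of 9 were called in CA3 and 1 of 8 rose in DG, Slc6a7, the brain proline transporter, by 0.65 (limma adjusted p = 0.0163). With both together Slc6a7 rose by 0.85 (limma adjusted p = 0.0120) and Slc6a17 by 0.33 (limma adjusted p = 0.0313), 2 of 9. Choroid plexus genes were lower in trained CA3 for 11 of 11 tested, and 2 of them passed: Ttr, which encodes transthyretin, fell by 3.29 on the log2 scale (limma adjusted p = 7.26e-06), and Clic6, a chloride channel family member, fell by 2.55 (limma adjusted p = 0.0343). Ttr was at 560 and 834 in untrained CA3 and at 66.2 to 72.4 in trained CA3. In CA1, as a description, 10 of 10 choroid plexus genes were lower in trained libraries with a median of -1.03, and 0 of them had no overlap (11.1% of all genes). Of the oligodendrocyte genes 23 of 25 were higher in trained CA3, opposite in sign to Ptgds, and 0 were called by limma (2 at an unadjusted p under 0.05, against 15.8% of all genes). In CA1, as a description, they had the sign of Ptgds: 22 of 24 were lower in trained libraries, 8 with no overlap (11.1% of all genes), with a median of -0.26. In DG 8 of 25 were higher and 17 lower, with a median of -0.13. Among their most abundant genes, the myelin genes Mbp (0.23 in CA3 and -0.41 in DG) and Mobp (0.41 and -0.26) were not called. Between CA1 and CA3, where 0.988% of all genes were called, 1 of 14 choroid plexus genes was: Kl was higher in CA1 by 0.43 (limma adjusted p = 0.0393). Between CA1 and DG, where 4.05% were, 1 of 34 other leptomeningeal genes was called: Col5a1, a collagen gene, was higher in CA1 by 0.75 (limma adjusted p = 0.0411). So was 1 of 10 other SLC6 transporters, Slc6a6, a taurine transporter, by 0.22 (limma adjusted p = 0.0454). The endothelial calls of that contrast are given below. In the interaction 0 genes of these lists were called, where 0.164% of all genes were.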

How the data were processed

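The 16 libraries, 9 trained and 7 untrained, were made by bulk RNA-seq. The protocol gives rRNA depletion, although the label of the molecule is polyA RNA. Per the labels and methods, the authors converted reads with bcl2fastq 2.20, checked and trimmed them (FastQC, Trim Galore), aligned them with STAR and quantified them with Salmon. The labels give GRCm38, and the methods name mm10 beside another assembly. The deposited signal is a normalized estimated count whose normalization is not given in the sources used here. Depth was only approximated from the low values, and no counting interval is given. Whole reads could not be recovered, so instead of the study's count test log2(value + 2) was fitted in limma 3.58.1 (R 4.3.3), with trend and robust options, and p-values were adjusted over all genes (Benjamini-Hochberg, 0.05). Fold changes on this scale understate those of low genes. Correlations used 100000 permutations, or all of them below 10 libraries. The tests were checked on simulated data.

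The 10 genes and the gene lists were chosen with earlier results of these data known. Named genes are the 10 in every comparison, the called genes of each list (up to 3 with the smallest p) or up to 3 with the highest mean, the 8 genes most like Ptgds and Col1a2, sex-linked transcripts and subregion markers. Further genes (Hpgds, Xist, and the values of Ttr) were named after their values were seen. Libraries of 1 animal share a number: their deviations from group means correlated by -0.108 to 0.0921, and an animal block changed no call of the 10 genes between subregions. Over all genes it did change calls, as from 145 to 207 between CA1 and CA3. All tests were 2-sided. Positions come from GENCODE (GRCm38) and promoters from RefSeq. Alternatives were another pseudocount, filter, rescaling and estimation, blocks, a sex-linked covariate and each library or animal left out. Of the oligodendrocyte list, 1 gene is not reported here by name.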

Additional observations from a re-analysis of the deposited data

How the results depend on the processing

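For the results that answer a comparison, 188 values under the alternatives were classed as unchanged, 33 as moved and 5 passed the threshold newly. A tested difference was unchanged if it kept its direction and side of the threshold. A count of called genes was unchanged if it stayed equal or close. The CA1 difference, which was not tested, was unchanged if it kept its direction and shifted by less than the residual spread. With the sex-linked covariate the Ptgds difference was -0.44 in CA1 and -0.17 in DG, and in CA1 Col1a2 (1.58) and Bgn (1.79) changed sign. This covariate had r = -0.98 with training in CA1 and -0.93 in DG, so these fits can hardly separate it from training. The replicate number as a replicate block gave 3 called genes in CA3, where it called 8.38% of all genes, and -1.30 for Ptgds. Trained and untrained animals share only a number (correlations of deviations from -0.180 to 0.119), and with no untrained replicate 3 that fit rests on replicates 1 and 2. When the set of libraries by genes at 0 entered the fit, the count with CA3 and DG together was 1, and Ptgds was -0.55 there, -0.14 for CA3 minus DG and 0.49 for the interaction. This fit was not possible within CA1 or DG, where the sets coincide with training. Without a low-value filter 0 genes were called between CA1 and DG. Leaving out 1 library or animal gave -1.30 to -0.78 for Ptgds in CA3, -0.066 to 0.33 in DG, -0.16 to 0.13 for CA3 minus DG and -1.47 to -0.89 for the interaction, with 0 to 1, 0 to 2, 0 to 1 and 0 to 1 genes called in CA3, DG, CA1 minus DG and the interaction. In CA1, single libraries left out changed the sign of Col1a2 (-0.25 to 0.20), Lum (-0.80 to 0.10) and Igf2 (-0.41 to 0.088).

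Over the 16 libraries 3 of the 9 genes passed adjustment in Pearson's r with Ptgds and 1 (Dcn) in Spearman's rho, counts that include the CA1 libraries used to pick Ptgds. The count by r was 0 to 3 with an animal left out, 1 in CA3 and DG without the 2 farthest libraries (Col1a2, where Slc6a20a turned to -0.19), and 0 with subregion or group means removed, without the 2 farthest of the 16, within the libraries with few or with many genes at 0, within trained, within untrained, and in CA3 and DG with or without subregion means removed. The cause of each change was not tested. Depth, known only roughly, limits what can be said of genes near the value of 1 read. Of the 25 oligodendrocyte genes 0 passed over 16 libraries, and without untrained replicate 1 there were 2 that passed by r and 9 by rho.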

Other observations

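Genes of other cell types moved with the compared groups in their own ways. In trained CA1 the choroid plexus marker Ttr was at 2008 in replicate 1 and at 62.2 and 63.0 in the other libraries, and the same replicate held the highest values of Igf2 (246), Igfbp2 (94.5), Col1a1 (64.5) and Col1a2 (108) of the 16 libraries. Over the 16 libraries the mean log2 value of 14 choroid plexus genes had r = 0.72 with Col1a2 and r = 0.64 with Ptgds. Within the 9 libraries with few genes at 0 these values were 0.90 and 0.82, and within the 7 with many 0.70 and 0.12. The mean of the 34 other leptomeningeal genes had r = 0.81 with Ptgds over the 16 libraries, and 0.51 and 0.14 within these sets. Which list Ptgds followed more closely thus depended on the libraries used, and the difference was not tested. These are descriptions of relations chosen after seeing the data.

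Of 15 endothelial genes 13 had higher values in CA1 than in DG (median 0.42) and 5 were called (4.05% of all genes), among them Slco1a4, an organic anion transporter of brain capillaries, at 0.55 (limma adjusted p = 0.0256). Flt1, a receptor of vascular endothelial growth factor, fell by 0.94 in trained DG (limma adjusted p = 0.00142), 1 of 15 called. There 13 of the 15 were lower (median -0.35). With CA3 and DG together 12 of 15 were lower and 3 higher (median -0.09). The 2 called went against most of their list: Slc2a1, the glucose transporter of brain capillaries, rose by 0.35 and Egfl7 rose by 0.49 (limma adjusted p = 0.0179 and 0.0231). That fit also called 1 of 13 mural genes, Cspg4, which rose by 0.29 (limma adjusted p = 0.0492), and 1 of 14 astrocyte genes, Fgfr3, which rose by 0.37 (limma adjusted p = 0.00375), and it called 5.24% of all genes. Fgfr3 went against most of its list, with 10 astrocyte genes lower and 4 higher (median -0.06). Of the mural genes 7 were higher and 6 lower. In CA3, 0 of 15 endothelial, 0 of 13 mural and 0 of 14 astrocyte genes were called by limma (2, 2 and 3 at an unadjusted p under 0.05), where 0.852% of all genes were called and 15.8% had an unadjusted p under 0.05. In DG 3.39% of all genes were called. Mural cell genes were called for 1 of 11 in DG, Rgs5, which fell by 0.51 (limma adjusted p = 0.0464). Astrocyte genes were called for 2 of 14 in DG, Fgfr3, which rose by 0.36, and Atp1b2, which fell by 0.38 (limma adjusted p = 0.0304 and 0.00686). Oligodendrocyte genes were called for 1 of 25 in DG, Qdpr, which rose by 0.32 (limma adjusted p = 0.0441), and choroid plexus genes for 1 of 7, Cldn2, which rose by 2.25 (limma adjusted p = 0.0497). Dentate granule markers were lower in trained DG for 5 of 5, of which 2 were called: Prox1, a transcription factor of granule cells, fell by 0.31 and Stxbp6 fell by 0.44 (limma adjusted p = 0.00965 and 0.00445). With CA3 and DG together 3 of 5 were called lower, these and Dsp. Of the CA3 pyramidal markers 1 of 4 was called in trained DG, Ociad2, which rose by 0.60 (limma adjusted p = 0.00952), and of the CA1 pyramidal markers 0 of 5 were. Border macrophage genes were called for 0 of 3 in CA3 and in DG.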
